A study of Homo sapiens with 7 samples.

Results

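The genes described here encode the core of the microRNA (miRNA) pathway. They are 10 protein-coding genes: DROSHA, DGCR8 and DICER1, which process miRNA precursors, the Argonaute genes AGO1, AGO2, AGO3 and AGO4, and the GW182 genes TNRC6A, TNRC6B and TNRC6C. They were chosen by name, and their N6-methyladenosine (m6A) peaks were taken from 4 deposited peak lists by the Ensembl gene ID that each peak carries. Of the 10 genes, 9 had a peak in at least 1 list, among 13566 Ensembl IDs with a peak in any list.

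The lists came from HEK-293T cells, an established human embryonic kidney line that carries the SV40 large T antigen. The sample titles name no treatment of the cells. The series compares a chemical and an antibody method for mapping m6A. In m6A-ORL, RNA fragments were exposed to NO/O2, then to TDO and then to the biotin-bearing probe BA, caught on streptavidin beads and released with DTT, in 2 libraries. In MeRIP, fragments were caught with an antibody against m6A, in 2 libraries. Per the labels, m6A-ORL replicate 1 was made from total RNA, while m6A-ORL replicate 2 and both MeRIP replicates were made from polyA RNA, so replicate and RNA type cannot be told apart within m6A-ORL. The protocol text common to all samples describes oligo(dT) selection and makes no exception for the total RNA library. The 3 input libraries of the series were not analysed here. Titles call the captured libraries treated and the input libraries control. No label says whether replicates were separate cultures. The p-values below therefore rest on library-to-library spread that may be technical.

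Primary miRNA transcripts are cut in the nucleus by the Microprocessor, in which the nuclease DROSHA works with the RNA-binding protein DGCR8. The resulting hairpin is exported and cut by the nuclease DICER1, and 1 strand is loaded into an Argonaute protein. TNRC6 proteins bind Argonaute and recruit the deadenylases that shorten the tail of the target mRNA. m6A is placed on many mRNAs, often near stop codons and in long internal exons, and m6A on primary miRNAs is known as a mark recognised by DGCR8. DGCR8 mRNA itself holds hairpins that the Microprocessor cuts, which lowers DGCR8 levels.

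Those hairpins are annotated as the miRNA genes MIR3618 and MIR1306, which lie inside DGCR8 on the same strand. Their mature sequences are shown because peaks of both methods fell on or beside them. Capitals mark the seed, bases 2 to 8, and the sequences are from RefSeq, build GRCh38.p14.
hsa-miR-3618: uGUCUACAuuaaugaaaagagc
hsa-miR-1306-5p: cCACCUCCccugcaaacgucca
hsa-miR-1306-3p: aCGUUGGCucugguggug
The 3 seeds differ from one another. They lie at chromosome 22, 20085797 to 20085818, 20086072 to 20086093 and 20086112 to 20086129, all on the plus strand.

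A second sequence is shown because both m6A-ORL lists, and neither MeRIP list, placed a peak at its start. It is the window around an annotated start inside TNRC6A (GRCh38.p14, chr16:24729581-24729680, plus strand, from RefSeq), with 70 bases before the start in lower case and the first 30 transcribed bases in capitals.
TNRC6A start: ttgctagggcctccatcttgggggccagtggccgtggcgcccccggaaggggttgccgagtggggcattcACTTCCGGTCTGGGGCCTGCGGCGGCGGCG

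The lists held 11022 and 7661 peaks for m6A-ORL replicates 1 and 2, against 20760 and 20216 for MeRIP replicates 1 and 2. The lists give no read depth, and precision here is set by how many peaks there are. Peak lists show where a method called m6A and do not measure RNA levels, so a gene without a peak is not shown to lack m6A. Of 5 genes typical of HEK-293T, IRS4 and PAX2 had peaks, as did NEFM, whose match to an ID is uncertain, and INA and LIN28B had none. Of 11 markers of other cell types, 2 had peaks: GFAP had 2 in each MeRIP list, and COL1A1 had 8 and 1 by m6A-ORL and 0 and 1 by MeRIP.

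The pathway genes with a peak numbered 7 in m6A-ORL replicate 1 and 6 in replicate 2, against 8 in each MeRIP list. Of all IDs with any peak, 53.1% and 33.1% were in the m6A-ORL lists and 72.2% and 71.0% in the MeRIP lists. Of protein-coding genes, 29.9% and 21.2% had a peak by m6A-ORL and 41.9% and 40.9% by MeRIP. By m6A-ORL, 4 of the 10 had a peak in both libraries (40%, exact 95% interval 12.2 to 73.8), and by MeRIP 8 had one (80%, 44.4 to 97.5). In both libraries of a method, 12.9% of protein-coding genes had a peak by m6A-ORL and 38.6% by MeRIP, counted within the RefSeq span on the gene's strand over 15843 genes. Among all IDs with any peak the shares were 19.3% and 65.9%. The 10 genes are long, with a median span of 126879 nt against 25601 nt for these protein-coding genes, and the part of gene length and expression in the shares was not tested. AGO1, AGO2, TNRC6A and TNRC6B had a peak in all 4 lists (10.7% of protein-coding genes, 15.8% of IDs with any peak). DGCR8, DICER1, AGO4 and TNRC6C had one in 3 lists, DROSHA in 1 and AGO3 in none.

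**Figure D1:**
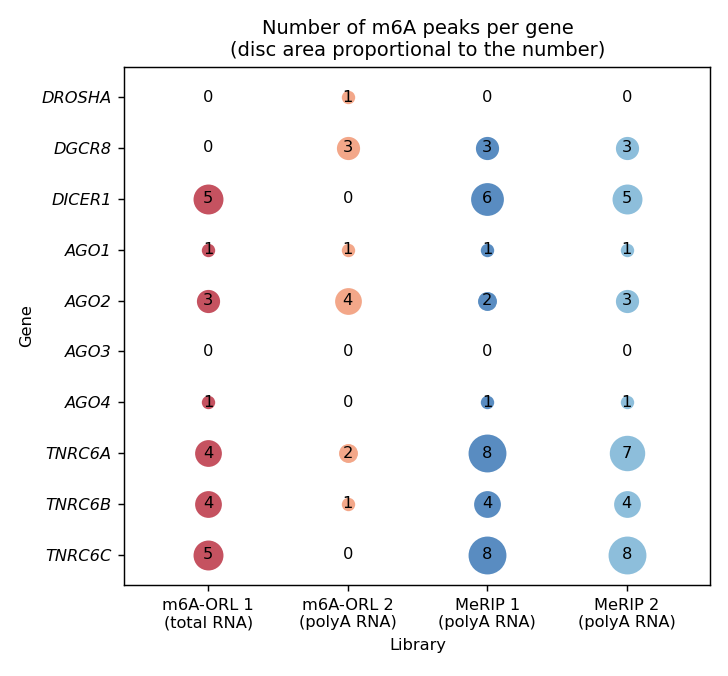
Number of peaks (number in each disc; disc area is proportional to it) for each gene (rows) in each library (columns). TNRC6A and TNRC6C hold most peaks, with 21 each over the 4 lists, and the m6A-ORL libraries differ in which genes they list.

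In all, the 10 genes held 23 and 12 peaks by m6A-ORL, against 33 and 32 by MeRIP, with means of 17.5 ± 7.78 and 32.5 ± 0.707 (SD, 2 libraries each). By a two-sided exact permutation test p was 0.33, and 0.42 adjusted over 5 measures. With 2 libraries per method, 0.33 is the smallest p the test can give. The m6A-ORL peaks covered 3558 and 1871 bases, against 11657 and 10970 bases by MeRIP (exact permutation p = 0.33). The median peak in these genes was 151 nt wide in each m6A-ORL list, and 241 and 226 nt in the MeRIP lists (exact permutation p = 0.33). No value of the m6A-ORL lists reached a MeRIP value in these measures. Relative to list length the order was lost: 20.9 and 15.7 peaks per 10000 by m6A-ORL stood against 15.9 and 15.8 by MeRIP (exact permutation p = 1.00). When all lists were shortened to the same number of peaks by score, the mean number of genes with a peak did not differ between methods (difference 0).

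DROSHA (chromosome 5, 31400494 to 31532093, minus strand), the nuclease of the Microprocessor, had a single peak, in m6A-ORL replicate 2. It was 61 nt wide, ended 960 nt before the 3′ end of the gene and ranked within the top 84.9% of its list by the authors' score, so it was among the weaker entries. Neither MeRIP list had a peak in DROSHA, although both had several in its partner DGCR8.

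DGCR8 (chromosome 22, 20080241 to 20111872, plus strand) had 0 and 3 peaks by m6A-ORL and 3 and 3 by MeRIP. The 3 polyA libraries thus listed it and the total RNA library did not. Every one of the 663 bases under m6A-ORL peaks also lay under a MeRIP peak, which was 40.9% of the 1623 bases covered by MeRIP. Its strongest peak lay near the 3′ end: 20110078 to 20110348 in m6A-ORL replicate 2, inside 20110048 to 20110678 and 20110048 to 20110618 in the MeRIP lists. There it ranked within the top 27.8% of the m6A-ORL list, and within the top 4.32% and 4.12% of the MeRIP lists.

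The other shared site of DGCR8 was at its miRNA genes. MIR3618 spans 20085746 to 20085833 and MIR1306 spans 20086058 to 20086142. In m6A-ORL replicate 2 a peak from 20086107 to 20086317 covered the last 36 of the 85 bases of MIR1306, including all 18 bases of hsa-miR-1306-3p and none of hsa-miR-1306-5p. A second peak of that list followed at 20086377 to 20086557. Both MeRIP lists had 1 peak of 720 nt here, at 20085868 to 20086587 and 20085838 to 20086557, which covered MIR1306 whole. Neither peak touched MIR3618, and the gaps between it and the MeRIP peaks were 34 and 4 nt. A peak on the same strand was listed for 0.789% and 0.620% of 1774 miRNA genes by m6A-ORL and for 1.41% and 1.30% by MeRIP. Peak edges fall in steps of about 30 nt, so the edges do not resolve single bases.

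**Figure D2:**
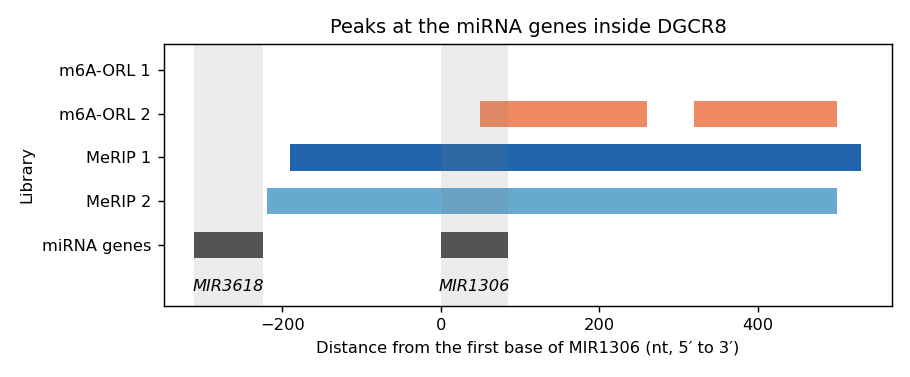
Peaks of each library (bars, rows) and miRNA genes (dark bars and grey bands) in the 5′ part of DGCR8, by distance in nt from the first base of MIR1306. Both MeRIP peaks cover all 85 bases of MIR1306 and stop short of MIR3618, m6A-ORL replicate 2 covers 36 of the 85 bases, and m6A-ORL replicate 1 has no peak.

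DICER1 (chromosome 14, 95086228 to 95158010, minus strand), which cuts the exported hairpin, showed the reverse split within m6A-ORL. It had 5 peaks in replicate 1 and 0 in replicate 2, against 6 and 5 by MeRIP. Of the 5 m6A-ORL peaks, 4 overlapped peaks of both MeRIP lists. The fifth, 91 nt wide, lay 1998 nt from the nearest MeRIP peak. The best-scored m6A-ORL peak was at 95124347 to 95124557, near the middle of the gene, within the top 17.9% of its list. MeRIP had a peak there too, within the top 59.5% and 63.9%. The MeRIP lists ranked other sites higher: the peak at 95096033 to 95096452 was within the top 16.0% and 13.5%, and the one beginning at 95103408 in replicate 1 and 95103438 in replicate 2 within the top 15.1% and 14.5%. m6A-ORL replicate 1 overlapped both sites. The weakest MeRIP peak, found in replicate 1 alone, lay 114 to 234 nt after an annotated DICER1 start and ranked within the top 90.7%. The miRNA gene MIR3173, inside DICER1, was at least 13361 nt from any listed DICER1 peak. A 91 nt peak of m6A-ORL replicate 2 lay on the opposite strand under the ID placed at DICER1-AS1.

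The Argonaute genes, whose proteins hold the mature miRNA, had 5 and 5 peaks by m6A-ORL and 4 and 5 by MeRIP. These covered 784 and 544 bases by m6A-ORL, and 1083 and 1054 bases by MeRIP, which was 9.29% and 9.61% of the MeRIP bases in the 10 genes. AGO1 (chromosome 1, 35869761 to 35930532, plus strand) had 1 peak in every list. At equal list length it kept 1 and 1 by m6A-ORL and had 0 and 0 by MeRIP, so its place in all 4 lists was lost. The peak of m6A-ORL replicate 1, at 35919853 to 35920033, lay inside the MeRIP replicate 1 peak at 35919793 to 35920033. That of m6A-ORL replicate 2, at 35920213 to 35920363, lay 179 nt downstream of the nearest MeRIP peak and overlapped none. So AGO1 was listed in all 4 lists, while no single base of it was covered in all 4.

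AGO2, the Argonaute protein with slicer activity, is on chromosome 8, minus strand. It had 3 and 4 peaks by m6A-ORL (4 or more for 7.59% of IDs in replicate 2) and 2 and 3 by MeRIP, the only one of the 10 genes besides DROSHA with a higher mean by m6A-ORL. The higher mean turned to a lower one (difference -1 peak) in the best-scored part of each list. A site 10634 to 10754 nt before the 3′ end was listed by all 4 libraries, but the lists had only 1 base in common there. Its peaks ranked within the top 69.8% and 79.1% by m6A-ORL, and the top 38.8% and 42.0% by MeRIP. A stronger neighbour, 11622 nt before the end, was in m6A-ORL replicate 1 (271 nt, top 16.7%) and in both MeRIP lists (391 nt, top 25.2% and 25.5%). Another 4 m6A-ORL peaks, 1 in replicate 1 and 3 in replicate 2, lay 4792 to 52790 nt from any MeRIP peak. They ranked within the top 99.8% in replicate 1, and the top 76.5%, 34.4% and 93.9% in replicate 2.

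AGO4 (chromosome 1, 35807636 to 35857890, plus strand) had 1 and 0 peaks by m6A-ORL and 1 and 1 by MeRIP, at opposite ends of the gene. The m6A-ORL peak lay 121 to 240 nt after an annotated start. The MeRIP peaks lay 1915 and 1945 nt before the 3′ end, 47539 nt or more away. All were among the weaker entries, within the top 80.4% by m6A-ORL and the top 60.9% and 75.4% by MeRIP. At equal list length, and in the best-scored part of each list, AGO4 had no peak in any list. AGO3 (chromosome 1, 35930718 to 36072500, plus strand), the neighbour of AGO1, had no peak in any list and none on either strand of its span. AGO4, AGO1 and AGO3 follow each other on chromosome 1, each on the plus strand.

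The TNRC6 genes had 13 and 3 peaks by m6A-ORL and 20 and 19 by MeRIP, the most of the 3 gene groups in every list but m6A-ORL replicate 2, where they had the fewest. They held 51.7% and 32.2% of the bases under peaks in the 10 genes by m6A-ORL, and 67.5% and 65.5% by MeRIP. TNRC6A (chromosome 16, 24610205 to 24826218, plus strand) had 4 and 2 peaks by m6A-ORL and 8 and 7 by MeRIP. TNRC6C (chromosome 17, 77957557 to 78108835, plus strand) had 5 and 0 against 8 and 8. TNRC6B (chromosome 22, 40044834 to 40335808, plus strand) had 4 and 1 against 4 and 4. Of IDs with a peak in the list, 1.21% had 8 or more peaks in MeRIP replicate 1 and 1.14% in replicate 2, and 2.32% had 5 or more in m6A-ORL replicate 1. In each of the 3 genes replicate 1 of m6A-ORL, from total RNA, had more peaks than replicate 2, from polyA RNA. At equal list length TNRC6A had 3 and 2 peaks by m6A-ORL and 3 and 3 by MeRIP, while TNRC6C had 1 and 0 against 5 and 6. TNRC6B then had 4 and 1 against 2 and 2, so the direction of its difference in mean turned to higher by m6A-ORL.

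MeRIP peaks were joined into stretches where gaps were at most 500 nt, which gave 3, 3 and 8 stretches in TNRC6A, TNRC6B and TNRC6C. The stretch with most bases under MeRIP peaks was 2486 nt long in TNRC6A (24789243 to 24791728), 1950 nt in TNRC6B (40265029 to 40266978) and 2595 nt in TNRC6C (78048863 to 78051457). All lay well before the 3′ end, by 34490, 68830 and 57378 nt. MeRIP covered 66.5% and 58.1% of the stretch in TNRC6A, 90.8% and 72.4% in TNRC6B, and 87.4% and 85.5% in TNRC6C. m6A-ORL replicate 1 covered 14.6%, 17.0% and 16.2% of these stretches. m6A-ORL replicate 2 covered 331 and 151 bases in TNRC6A and TNRC6B, and 0 in TNRC6C. These stretches were defined from the MeRIP peaks, so the m6A-ORL coverage alone is independent of the choice. Exons were not annotated in the sources used here, so whether a stretch is a single exon was not examined.

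**Figure D3:**
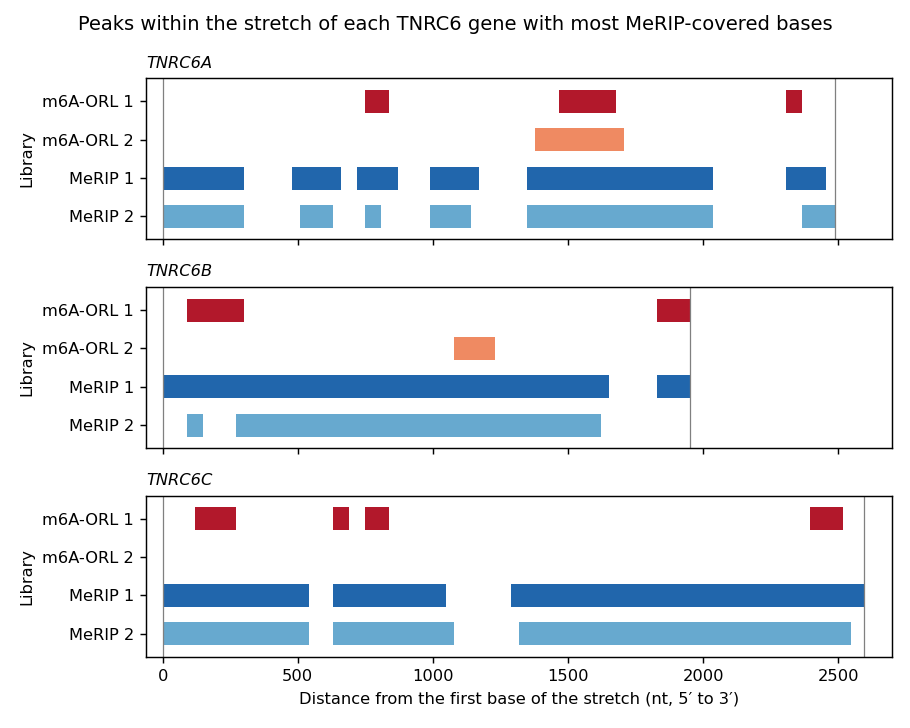
Peaks of each library (bars, rows) within the stretch of TNRC6A, TNRC6B and TNRC6C that had most bases under MeRIP peaks, by distance in nt from its first base; grey lines mark its ends. The stretches were defined from MeRIP peaks, so their high MeRIP coverage follows from the choice. m6A-ORL peaks mark smaller pieces, 14.6% to 17.0% of each stretch in replicate 1, and replicate 2 has none in that of TNRC6C.

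The best-ranked MeRIP peaks of all 10 genes lay in these stretches. In TNRC6B a MeRIP peak of 1650 nt in replicate 1 and one of 1350 nt in replicate 2 ranked within the top 2.13% and 1.81% of their lists. In TNRC6A the 690 nt peak at 24790590 to 24791279, the same interval in both MeRIP lists, ranked within the top 1.87% and 2.04%. The m6A-ORL peaks inside it, 24790710 to 24790920 and 24790620 to 24790950, ranked within the top 64.5% and 37.5%. Their common part, 211 bases from 24790710 to 24790920, was the only sequence of more than 1 base in the 10 genes that all 4 lists covered.

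Sites nearer the 3′ end differed between the genes. TNRC6A had a MeRIP peak 278 nt before its end in both lists (top 20.1% and 18.2%) and no m6A-ORL peak within 33971 nt of it. TNRC6C had 3 and 4 MeRIP peaks that ended 3743 nt or less before its end, and none by m6A-ORL. The last of these, 180 and 240 nt wide, was also listed with the same interval and score on the opposite strand, under another ID, so its strand cannot be told from the lists. In TNRC6B the MeRIP peak at 40323096 to 40323516 (top 11.3%) was overlapped by m6A-ORL replicate 1. The peak of TNRC6B nearest the 3′ end, at 40325015 to 40325165, was in m6A-ORL replicate 1 alone, 10643 nt before the end and 1498 nt from any MeRIP peak.

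The annotated start inside TNRC6A went the other way. Both m6A-ORL lists had a peak whose last block began at the first base of that start, 24729651, and ran for 168 nt in replicate 1 and 108 nt in replicate 2. It ranked within the top 27.5% and 33.3%, and the nearest MeRIP peak was 59424 nt away. Each also held a block of 13 nt upstream, at 24640997 to 24641009, listed as part of the same peak. Whether a splice joins the blocks was not examined. Over all genes, peaks with a block in the first 50 nt of a start made up 9.78% and 7.07% of m6A-ORL peaks, and 7.27% and 7.38% of MeRIP peaks. The first 50 bases from that start of TNRC6A held 1 A, the first capital of the sequence shown above, against a median of 10 over 35116 start windows, and 0.797% of windows held at most 1. Their GC content was 84%, which 2.38% of windows reached or passed, against a median of 60%. The motif GGAC, part of the usual m6A context, was absent from these first 50 bases, and only 18.9% of windows held it there. It was also absent from the 100 bases shown on either strand, and 52.1% of windows held it in the same 100 bases. Of those bases, 70 lie before the start and outside the block of the peak. GGCGGC was found in the first 50 bases, as in 8.17% of windows. The peaks run past the sequence at hand, so the rest of their bases was not examined.

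Positions were compared between lists next, and a peak counted as shared if any of its blocks met a block of the other list on its strand by 1 nt or more. Of the m6A-ORL peaks in the 10 genes, 17 of 23 (73.9%) in replicate 1 and 6 of 12 (50%) in replicate 2 were overlapped in MeRIP replicate 1. Over all peaks of the m6A-ORL lists these shares were 52.9% and 45.8%. Counting only genes with a peak in both lists compared, they were 73.9% and 54.5% in the 10 genes, against 71.1% and 56.4% over all such genes. Of the MeRIP replicate 1 peaks, 16 of 33 (48.5%) were overlapped in m6A-ORL replicate 1 and 5 of 33 (15.2%) in replicate 2. In genes with a peak in both lists this became 53.3% and 27.8%, against 45.1% and 35.1% over all such genes. The MeRIP lists overlapped in 84.8% and 90.6% of peaks in the 10 genes, against 87.4% and 89.3%. Between m6A-ORL libraries 3 peaks were shared, of 23 in replicate 1 and of 12 in replicate 2. These were the TNRC6A start, the TNRC6A stretch and the AGO2 site near the 3′ end. Over all peaks of the m6A-ORL lists, 13.8% of replicate 1 and 19.6% of replicate 2 were shared. In genes with a peak in both m6A-ORL lists, 25% and 37.5% were shared in the 10 genes. Over all such genes the shares were 31.3% and 30.7%. In genes with a peak in both lists, every share over all genes lay within the exact 95% interval of the 10 genes for every ordered pair of lists, and these intervals are wide and cover counting error only. Counting every peak of a list, the shares of MeRIP peaks overlapped in m6A-ORL replicate 1 were 48.5% and 50% in the 10 genes, against 25.3% and 25.0% over all peaks, which lay below the exact intervals of 30.8 to 66.5 and 31.9 to 68.1. Peaks of a gene share its transcript and are not replicates.

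**Figure D4:**
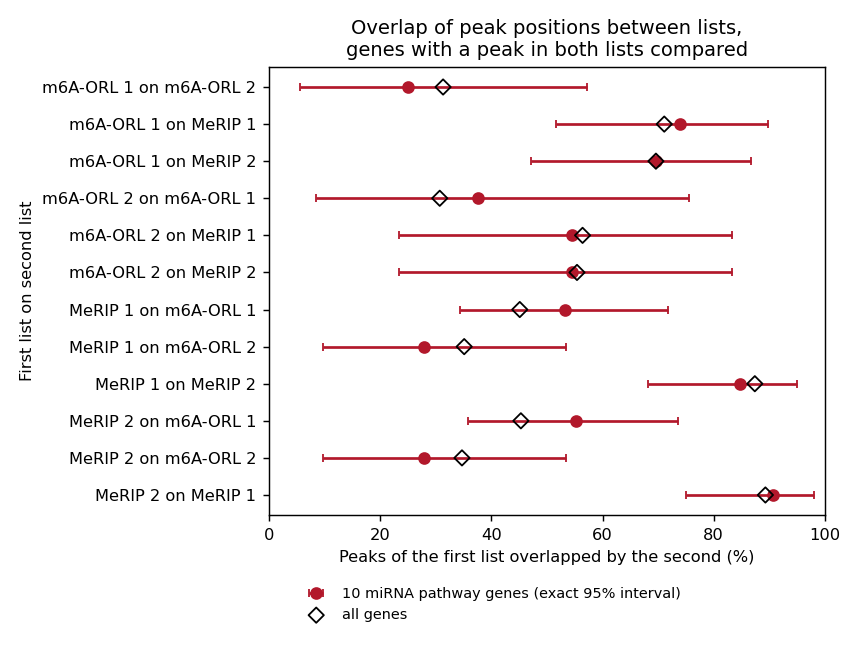
Share of peaks of the first list overlapped by the second (%, x axis) for each pair of lists (rows), counting only genes with a peak in both. Filled points are the 10 genes with exact 95% intervals, and open diamonds are all genes; each diamond lies within the interval of its pair.

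Along the gene, 5 of 23 and 4 of 12 m6A-ORL peaks had their centre in the last 10% of the genomic span, against 12 of 33 and 13 of 32 MeRIP peaks. Those shares were 21.7% and 33.3%, against 36.4% and 40.6%. In all named genes they were 34.8% and 28.1% by m6A-ORL, and 36.4% and 36.1% by MeRIP, within the intervals of the 10 genes. By the authors' score, which ranks peaks within a list, no m6A-ORL peak of the 10 genes was in the top 10% of its list, and 5 peaks of each MeRIP list were. The median peak ranked within the top 56.6% and 36.0% of the m6A-ORL lists, and the top 45.4% and 35.0% of the MeRIP lists.

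**Figure D5:**
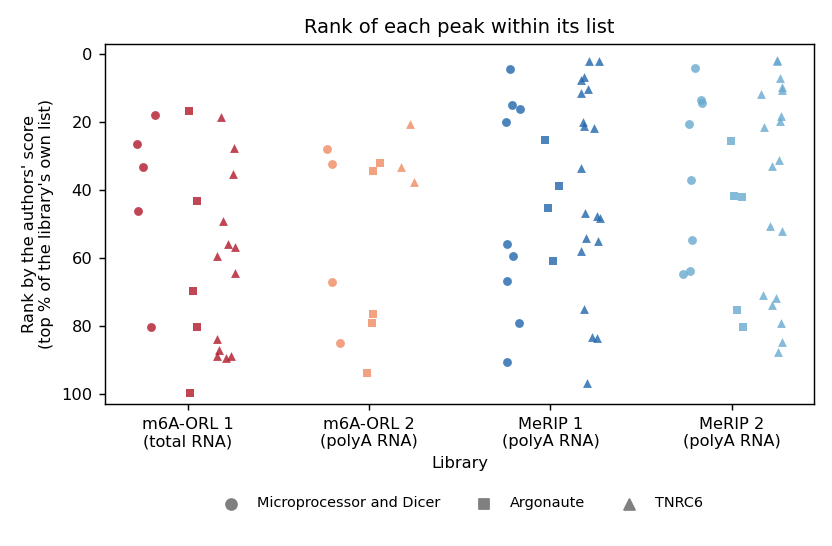
Rank of each peak of the 10 genes within its own list by the authors' score (y axis, top % of the list, best at the top) in each library (x axis); marker shapes give the gene group. Only MeRIP lists hold peaks in the top 10%, 5 each, and these belong to DGCR8 and the TNRC6 genes.

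Other genes of the pathway were taken from a list of 54, of which 49 had a peak in any list. They had a peak in both m6A-ORL libraries in 18 cases (33.3%) and in both MeRIP libraries in 32 (59.3%), against 12.9% and 38.6% of protein-coding genes. Of IDs with any peak, 19.3% and 65.9% did, so the MeRIP share of the list lay below that of IDs. The 54 include genes without any peak, which the IDs do not. The part of gene length and expression in these shares was not tested. By role, the counts in both m6A-ORL and in both MeRIP libraries were 6 and 6 of 9 for nuclear processing and export. They were 3 and 5 of 9 for partners of DICER1 and Argonaute loading. For precursor tailing and decay they were 0 and 6 of 8, and for deadenylation and decay of targets 9 and 15 of 28.

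A peak in all 4 lists was found for 10 of the 54 (18.5%), against 10.7% of protein-coding genes and 15.8% of IDs with any peak. Most peaks were in DDX17, an RNA helicase of the Microprocessor, with 9 and 1 by m6A-ORL and 3 and 3 by MeRIP. KHSRP, an RNA-binding protein that aids processing of some precursors, had 3 and 9 against 1 and 1. ADAR, the adenosine deaminase that edits double-stranded RNA, had 3 and 2 against 3 and 3. LIMD1, a partner of Argonaute and TNRC6 proteins, had 1 and 1 against 4 and 3. The rest were GIGYF2, a translational repressor, HNRNPA2B1, an RNA-binding protein linked to m6A-marked precursors, the deadenylase complex subunits CNOT2 and CNOT9, the importin IPO8 and the chaperone HSP90AA1. Listed in each library by m6A-ORL and in no library by MeRIP were 6 of the 54 genes, against 2.68% of all IDs with any peak. They were RAN, the GTPase that drives hairpin export, SRSF3, CNOT1, EDC4, PABPC1 and PATL1. Peaks in both MeRIP lists and none by m6A-ORL were found for 5 of the 54, against 25.1% of all IDs with any peak. They were XPO5, the exporter of miRNA hairpins, DIS3L2, DCP1A, EIF4ENIF1 and AJUBA. XPO5 and its cofactor RAN thus lay on opposite sides, with 0 and 0 peaks by m6A-ORL and 1 and 1 by MeRIP for XPO5, and 2 and 3 against 0 and 0 for RAN.

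Genes with the most similar peak numbers over the 4 lists were looked up for TNRC6A and TNRC6C, which tied for most peaks. MGAT1 had the same numbers as TNRC6A, 4 and 2 by m6A-ORL and 8 and 7 by MeRIP, and FEM1A and RAI1 differed by 1 peak in all. AKAP13 had the same numbers as TNRC6C, 5 and 0 against 8 and 8, and PCYT2 and ZNF618 differed by 1.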

How the data were processed

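Each of the 4 captured libraries has a peak list of 12 BED columns with an Ensembl gene ID and a score per peak, per the file headers. The deposited scores have the range of a p-value or q-value, 0 to at most 0.0081, with nothing to say which; they are the authors' and served only to rank and filter peaks within a list. Per the submitters' processing notes, Trim Galore, STAR and HOMER were among the tools and hg38 was the build. For the peak calling, neither tool, input nor threshold was given in the sources used here. Exact duplicate lines were removed (2, 1, 4 and 3 for m6A-ORL 1 and 2 and MeRIP 1 and 2).

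An ID took the name of the RefSeq gene (GRCh38.p14) whose span held most, and at least 50%, of its peak bases on its strand, which named 12356 of 13566 IDs. The table lists no Ensembl IDs, and gives no strand for AGO2, whose strand was that of its own peaks. The only ID in the span of XRN1 had 1 short peak in 1 list and was not taken as that gene. Without a genome, the planned motif search within peaks was not run.

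Method means were compared by exact two-sided permutation over libraries, adjusted by Benjamini-Hochberg over 5 measures. Shares have exact (Clopper-Pearson) 95% intervals. Alternatives were score filters, list length, gene assignment, duplicates, overlap rules, left-out libraries and a replicate block. All 10 genes are named; of the other pathway genes, those with peaks in all 4 lists or in both libraries of a single method are. The members and lists were chosen with earlier results of these data known. The comparison within genes listed in both lists, and the TNRC6 stretches, were added after the data were seen. Overlap code was tested on simulated intervals. Python 3.11.15, pandas 2.3.3 and scipy 1.17.1 were used.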

Additional observations from a re-analysis of the deposited data

How the results depend on the processing

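The lower m6A-ORL values kept their direction in every alternative run for peaks, covered bases and peak width in the 10 genes. At equal list length the differences (m6A-ORL minus MeRIP) were 0 genes with a peak, -3 peaks and -247 nt of width. In the best-scored part of each list the width difference was -225 nt. Both cuts keep peaks by score, and the widest MeRIP peaks, of 1650 and 1350 nt, ranked within the top 2.13% and 1.81%. Width after a cut is thus not independent of the ranking. At equal length m6A-ORL replicate 2, the shortest list, was not cut. Leaving out each library in turn gave differences of -2 to -1 genes, -20.5 to -9.50 peaks, -9442 to -7756 bases and -90 to -74.5 nt of width. With the replicate number as a block the differences were unchanged, at -1.50 genes, -15 peaks, -8599 bases and -82.2 nt, with exact sign-flip p = 0.50, the smallest possible; the numbers mark no shared culture in the labels, so this pairs libraries by number only.

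For the 10 genes, the count with m6A-ORL peaks in both libraries was 4. Leaving out an m6A-ORL library leaves the count of the other library alone, which cannot be lower. It was 7 without m6A-ORL replicate 2 and 6 without replicate 1. Leaving out a MeRIP library cannot change the count, so these runs do not test it. When 1 library sufficed, 9 genes had a peak. For the other pathway genes the count was 18, and 10 in the best-scored part of each list. It was 29 without m6A-ORL replicate 2, 30 without replicate 1 and 41 when 1 library sufficed. Assignment by gene span and strand, and keeping duplicate lines, changed no value. The IDs had themselves been matched to genes by span and strand, so the former is not an independent check of the assignment. Peak numbers limit all shares, since 12 to 33 peaks per list lay in the 10 genes.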
